A study of Homo sapiens with 15 samples.

Results

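The RNA of HuCCT1, an established human line from a cholangiocarcinoma (a cancer of the bile duct), was compared with that of HEK293T, an established line from human embryonic kidney that carries a viral large T antigen. The comparison used 6 of the 15 libraries of the study, the 3 of each line that are labelled Ctrl. It covered 26791 of the 62703 genes of the HEK293T table, namely those whose identifier stands in both deposited count tables and whose type is protein_coding (16541 genes) or lncRNA (10250), without the mitochondrially encoded genes. Knockouts in the study were made with CRISPR-Cas9 and are labelled SNRPD2KO in both lines and PUS7KO in HEK293T alone. The labels give neither the guides nor the clones, nor what the Ctrl cells received. HEK293T was grown in DMEM and HuCCT1 in RPMI-1640, both with fetal bovine serum. Line, culture medium, count table and possible sequencing run cannot be told apart here. The labels do not say whether the 3 libraries of a group come from separate cultures, so p-values measure only the spread between these libraries, which may be technical.

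SNRPD2 RNA was higher, not lower, in the libraries labelled SNRPD2KO than in those labelled Ctrl, in both lines. SNRPD2, which encodes the Sm protein SMD2 of the spliceosome, had 354 ± 35.5 CPM (counts scaled to library size, with TMM factors; SD, n = 3) in the HEK293T libraries labelled SNRPD2KO and 229 ± 17.4 in those labelled Ctrl. In HuCCT1 it had 362 ± 37.0 CPM in the libraries labelled SNRPD2KO and 202 ± 9.73 in those labelled Ctrl. The libraries labelled SNRPD2KO and Ctrl were scaled in separate fits. The SNRPD2 gene and its protein were not measured, and whether the labels hold was not tested. Between the lines, the libraries labelled Ctrl differed little in SNRPD2 (log2 difference -0.18 ± 0.07, SE) and in PUS7 (0.19 ± 0.09), an RNA pseudouridine synthase. All values below come from the libraries labelled Ctrl unless the others are named, and each difference is HuCCT1 minus HEK293T.

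An epithelial cell is held to its neighbours by cadherins, claudins and desmosomes and is braced by keratin filaments. Simple epithelia such as the bile duct express KRT8, KRT18, KRT7 and KRT19, and transcription factors such as GRHL2 and EHF keep that programme on. HEK293T cells carry intermediate filament and adhesion genes known from neurons, and genes of the embryonic kidney. HOX genes, which mark position along the body axis, and LIN28B, which blocks maturation of the let-7 microRNAs, are further signs of developmental origin.

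Depth differed between the lines. Counts on the compared genes were 5504417 to 5936990 per library in HEK293T, 64.5% to 69.3% of all counts in its table, and 12926443 to 15890013 in HuCCT1, 93.2% to 94.6%. A floor of 3 counts equals 0.505 to 0.545 CPM before scaling in single HEK293T libraries and 0.189 to 0.232 CPM in HuCCT1. Intervals and floors cover counting error only. Log2 CPM correlated across genes with r of 0.983 to 0.986 within HEK293T, 0.990 within HuCCT1 and 0.633 to 0.639 between the lines. Genes are not independent replicates, so these values are a description.

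The tables themselves set limits on a gene listed at 0. In HEK293T, 22 runs of at least 3 neighbouring genes, 95 genes in all, had at most 3 counts each over the 3 libraries, among 14009 genes with at least 2 CPM in either line. The search for such runs was chosen after seeing the data. The longest held 12 genes on the X chromosome (X, 48890197 to 49168774, hg38), from PQBP1, a splicing-related factor, to MAGIX. These 12 genes had 4 counts in HEK293T, 3 in the other 6 HEK293T libraries together, and 31537 in HuCCT1, while PLP2, the next gene, had 264 and 8787. Some genes in runs serve processes every cell uses. CCT8, a chaperonin subunit, had 2 HEK293T counts, and COX5B of cytochrome oxidase and PSMB3 of the proteasome had none. Outside any run, NDUFB10 of respiratory complex I and MED10 of Mediator also had none. Of the 95 genes, 85 also had at most 3 counts in the other 6 HEK293T libraries, which are labelled SNRPD2KO or PUS7KO. HuCCT1 had 4 runs with 13 genes. Genes without a count are not listed in the HuCCT1 table and could not enter its runs. The numbers of runs in the lines therefore cannot be set against each other. The runs low in HEK293T also held the keratin clusters with KRT7 and KRT19. A gene at 0 in HEK293T is therefore only listed at 0, and whether it was silent or not counted was not tested. The same limit holds for a gene at 0 in HuCCT1.

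**Figure D1:**
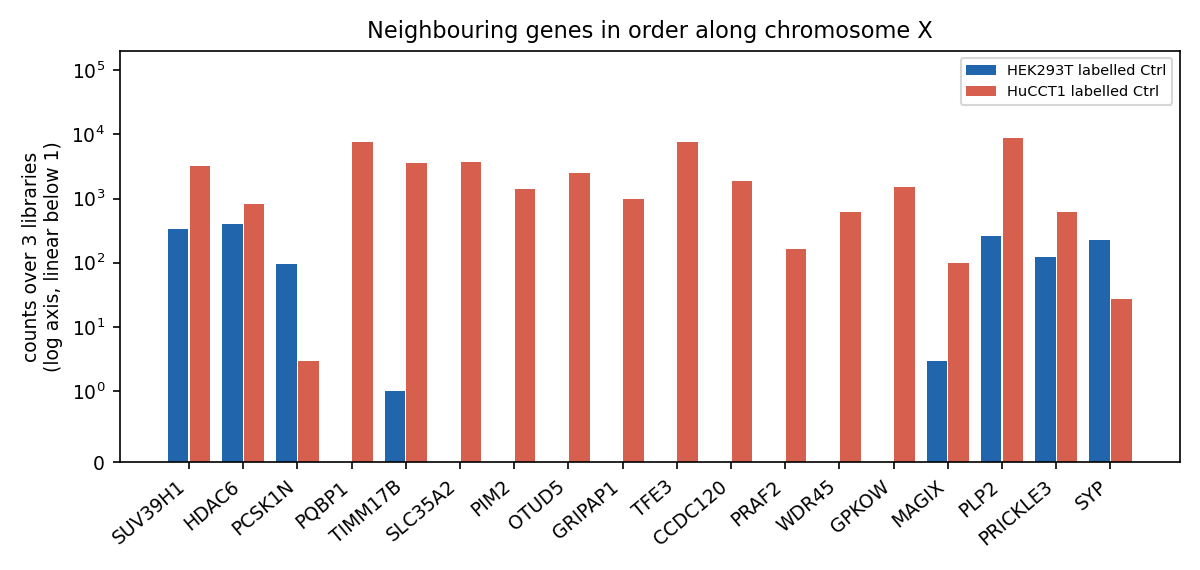
Counts summed over 3 libraries (log axis, linear below 1) for 18 neighbouring genes on the X chromosome, in genomic order, for HEK293T (blue) and HuCCT1 (red). The 12 genes from PQBP1 to MAGIX have 0 to 3 counts in HEK293T, and the 3 genes on either side of them have 95 to 394.

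The lines differed in most genes. Of 15367 genes with enough counts, 13016 (84.7%) passed an adjusted p of 0.05 in edgeR's quasi-likelihood test, 6327 (41.2%) with the higher level in HuCCT1 and 6689 (43.5%) in HEK293T, and 13183 (85.8%) had groups that did not overlap. A stricter call was therefore used for gene lists: a difference shown to exceed 2-fold by edgeR's glmTreat, at an adjusted p of 0.05. By that call 7779 genes (50.6%) differed, 3771 (24.5%) higher in HuCCT1 and 4008 (26.1%) higher in HEK293T. Those shares are the background against which each list below is read. A gene with hardly a count in 1 line could be tested only through the other, which fixed its direction. Lists with many such genes therefore cannot be set against these shares. This limit holds in either direction for every list below, also where it is not repeated. The median log2 difference of all tested genes was -0.09. With library totals as the only scaling it was -0.77, and 2481 calls then favoured HuCCT1 and 6075 HEK293T, so 29% of the calls instead of 48.5% were higher in HuCCT1. In bulk RNA, a lower level per cell and fewer cells that hold the RNA cannot be told apart.

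The keratins followed here were higher in HuCCT1, and their largest differences fall on genes that lie in runs. KRT19 (ENSG00000171345.13, chromosome 17, 41523617 to 41528308, minus strand, hg38), a keratin of bile duct epithelium, had 0 CPM in all 3 HEK293T libraries and 2461, 2438 and 2442 CPM in HuCCT1. That is 0 counts against 85249, at least 17438-fold higher in HuCCT1 when 3 counts over the group stand in for 0. KRT7 (ENSG00000135480.17, chromosome 12, 52232520 to 52252186, plus strand), its partner in ducts, had 0, 0 and 0.143 CPM in HEK293T and 6146, 6041 and 5821 CPM in HuCCT1. Its 1 HEK293T count against 209444 gave a ratio of 128524 (95% counting interval 23067 to 5076455). Neither gene overlapped between the lines, and both lie in runs of neighbours without HEK293T counts. KRT8 and KRT18, the primary keratin pair of simple epithelia, lie outside such runs and had counts in both lines. KRT8 had 299, 235 and 149 CPM in HEK293T and 2850.4, 2841 and 2699.8 CPM in HuCCT1, 12.3-fold higher in HuCCT1. KRT18 had 147, 129 and 96.9 CPM in HEK293T and 4024, 4006 and 3972 CPM in HuCCT1, 32.2-fold higher (log2 difference 5.01 ± 0.12, adjusted p = 1.7e-14 by glmTreat). The HEK293T libraries spread more widely in KRT8 and KRT18 than the HuCCT1 libraries, without reaching them.

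On the neural and developmental side, NEFL, the light neurofilament subunit, had 65.7, 60.7 and 44.5 CPM in HEK293T and 0.251, 0.478 and 0.0969 CPM in HuCCT1, 190.0-fold higher in HEK293T (log2 difference -7.57 ± 0.27, adjusted p = 2.1e-12). NEFM, the medium subunit, had 27.6, 26.97 and 20.1 CPM in HEK293T and 0.334, 0.0797 and 0 CPM in HuCCT1, 159-fold higher in HEK293T (adjusted p = 1.3e-10). Every HEK293T library lay above every HuCCT1 library for both. LIN28B is not listed in the HuCCT1 table and so falls outside the comparison. In HEK293T it had 86.8, 88.1 and 80.1 CPM on the same scale, from 1817 counts. The 4 markers that could be compared lay on the side of the line labels, KRT19 and KRT7 with the reservation on runs. Each had few or no counts in the other line and was tested only through its higher line, which fixed its direction. These markers are therefore no test of the labels.

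**Figure D2:**
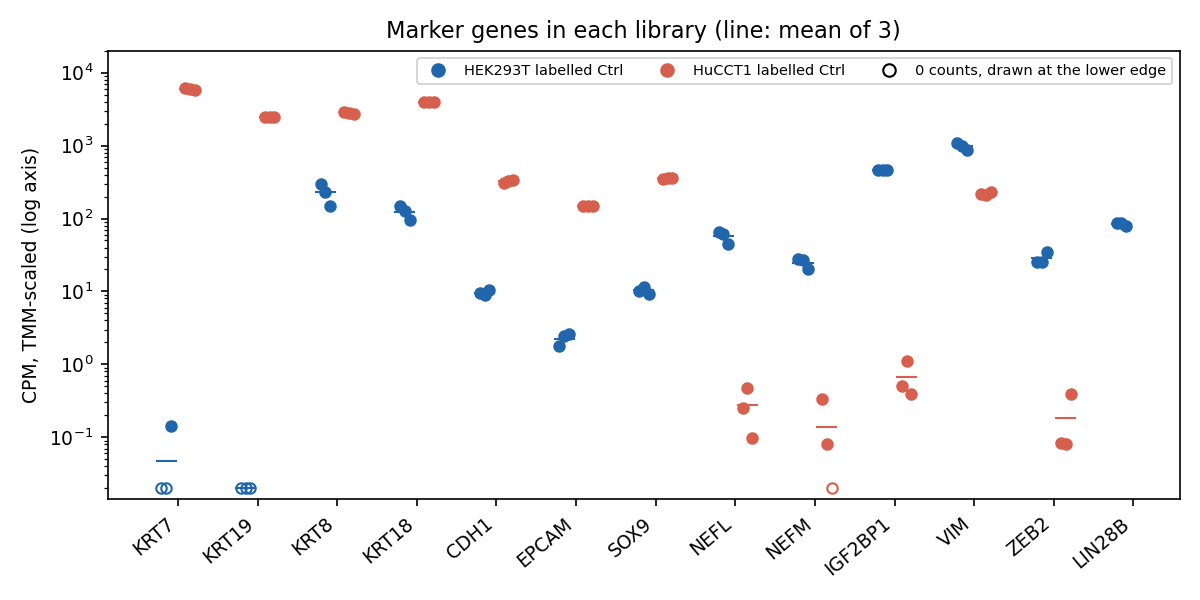
CPM of 13 genes in each library (log axis), HEK293T blue and HuCCT1 red, with the mean of 3 as a line; open circles are 0 counts drawn at the lower edge, and LIN28B is shown for HEK293T alone. Keratins, CDH1, EPCAM and SOX9 lie higher in HuCCT1, and NEFL, NEFM, IGF2BP1, VIM and ZEB2 higher in HEK293T, with no overlap.

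The first keratin list held KRT7, KRT8, KRT18 and KRT19 of simple epithelia together with KRT80 and the hair keratins KRT81 and KRT86. All 7 were higher in HuCCT1 beyond 2-fold. Of these, 5 lie in runs and had enough counts for a test through HuCCT1 alone, which fixed their direction. The median log2 difference, 13.25, is the fitted value of KRT80, which had 1 HEK293T count. KRT81 had 0 counts against 154219 and KRT80 1 against 20409. KRT86 (126 counts in HuCCT1) is nearly identical to KRT81, so the division of reads between them is uncertain. The 7 tested keratins of stratified epithelia, such as skin and oesophagus, were all higher in HuCCT1 as well, 6 of them in runs. KRT17, the one outside, had 1.08, 0.430 and 0.571 CPM in HEK293T and 205, 215 and 198 CPM in HuCCT1, 288-fold higher in HuCCT1. All 11 listed members together summed to 0.999 to 2.03 CPM in HEK293T and 294 to 317 in HuCCT1. The 7 therefore had enough counts for a test through HuCCT1 alone, which fixed their direction. KRT15, of basal cells, had 38.9, 50.3 and 45.3 CPM in HuCCT1 and 1 count in HEK293T. The median of this list was 8.17, or 6.36 with KRT6B, the tested member at 0 in HEK293T, set at its bound.

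Junction and polarity genes were higher in HuCCT1 in 27 of 33 tested members, 26 of them outside runs, and 2 were higher in HEK293T (median 3.51). Those with hardly a HEK293T count, such as RAB25 and PKP3, were tested only through HuCCT1, which fixed their direction. CDH1, or E-cadherin, had 9.46, 9.04 and 10.4 CPM in HEK293T and 303, 332 and 336 CPM in HuCCT1, a log2 difference of 5.07 ± 0.09 (adjusted p = 7.1e-16). EPCAM, an epithelial adhesion molecule, had 1.76, 2.44 and 2.57 CPM in HEK293T and 146, 148 and 146 CPM in HuCCT1, 65.1-fold higher. Neither showed any overlap. Among tight junction genes, CLDN4 stood at 1.17 ± 0.528 CPM in HEK293T and 467 ± 20.9 in HuCCT1 and CLDN1 at 1.17 ± 0.528 CPM in HEK293T and 159.7 ± 11.7 in HuCCT1, each with 25 HEK293T counts. ST14, the membrane protease matriptase, had 0.329 ± 0.0884 CPM in HEK293T and 946 ± 40.7 in HuCCT1, 2776-fold higher in HuCCT1. RAB25, a GTPase of epithelial recycling, the desmosome protein PKP3, the cornified envelope protein EVPL and the polarity protein CRB3 had 4695, 2972, 5732 and 2075 counts in HuCCT1 against 3, 2, 4 and 4 in HEK293T. JUP, or plakoglobin, had 72.96 ± 3.90 CPM in HEK293T and 862 ± 16.2 in HuCCT1. The opposite direction was held by the desmocollins. DSC3 had 56.9, 57.8 and 53.9 CPM in HEK293T and 0.919, 0.398 and 0.776 CPM in HuCCT1, 80.00-fold higher in HEK293T, and DSC2 was 6.59-fold higher there. Their partner DSG2, a desmoglein, had 307 ± 11.4 CPM in HEK293T and 147 ± 5.39 in HuCCT1 and did not pass (adjusted p = 0.11). TJP1, the tight junction scaffold ZO-1, had 7.70, 2.44 and 13.99 CPM in HEK293T and 34.3, 11.1 and 13.5 CPM in HuCCT1, a wide spread in both lines, and did not pass (adjusted p = 0.2).

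The transcription and splicing regulators of epithelia were higher in HuCCT1 in 12 of 15 tested members and none was higher in HEK293T (median 4.89). Those with hardly a HEK293T count, such as EHF and OVOL1, were tested only through HuCCT1, which fixed their direction. EHF, an epithelial ETS factor, had 0 CPM in all 3 HEK293T libraries and 254, 259.9 and 254 CPM in HuCCT1. GRHL2, which activates cadherin and claudin genes, had 0, 0.143 and 0.428 CPM in HEK293T and 176, 183 and 178 CPM in HuCCT1, a log2 difference of 9.80 ± 0.19. FOXA2, a pioneer factor of endoderm, had 3 counts against 5973, a ratio of 1222 (95% counting interval 418 to 5926). The splicing factors ESRP1 and ESRP2, which set epithelial exon choices, had 0.186 ± 0.161 CPM in HEK293T and 107 ± 6.29 in HuCCT1, and 1.22 ± 0.355 CPM in HEK293T and 36.5 ± 1.58 in HuCCT1. OVOL1, a repressor of mesenchymal genes, was at 0 counts against 1020, and ELF3 and KLF5 were 85.5-fold and 6.25-fold higher. FOXA1 had 14.2 ± 1.40 CPM in HEK293T and 11.1 ± 1.39 in HuCCT1 and did not pass (log2 difference -0.35).

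Biliary genes were higher in HuCCT1 in 12 of 17 tested members, all outside runs, with 1 higher in HEK293T (median 3.73). SOX9, a factor of duct cells, had 10.3, 11.5 and 9.28 CPM in HEK293T and 354, 357 and 358 CPM in HuCCT1, 34.4-fold higher in HuCCT1 (adjusted p = 4.1e-16). JAG1, the Notch ligand of duct development, had 6.83 ± 0.418 CPM in HEK293T and 284 ± 2.08 in HuCCT1. YAP1 of the Hippo pathway had 87.3 ± 6.89 CPM in HEK293T and 321 ± 14.1 in HuCCT1, and BICC1, an RNA-binding protein of tubular epithelia, 4.98 ± 1.22 CPM in HEK293T and 86.1 ± 9.04 in HuCCT1. CFTR, the chloride channel, was low in both, with 3 and 95 counts. SPP1, or osteopontin, often used as a duct marker, had 9 and 15 counts and was not tested. ONECUT2, an activator of liver and duct genes, was 3.96-fold higher in HEK293T.

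Few hepatocyte genes were detectable, with 5 of 16 listed members tested. SERPINA1, the alpha-1 antitrypsin gene, had 100.4, 88.8 and 100.1 CPM in HuCCT1 and no HEK293T count, and HNF4A had 11.5, 10.7 and 11.5 CPM in HuCCT1 and 2 HEK293T counts. CPS1, the first enzyme of the urea cycle, ran the other way, with 70.8, 64.6 and 53.9 CPM in HEK293T and 0.167, 0.956 and 0.969 CPM in HuCCT1. ASGR1 and CYP2E1 were also higher in HEK293T, at 2.61 ± 0.933 CPM in HEK293T and 0.587 ± 0.320 in HuCCT1, and 2.11 ± 0.424 CPM in HEK293T and 0.556 ± 0.329 in HuCCT1.

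Mucosal secreted and surface genes were higher in HuCCT1 in 14 of 15 tested members, 12 of them outside runs. The median was 7.73, or 5.64 with 4 members at 0 in HEK293T set at their bound. The 24 members in both tables summed to 6.46 to 8.28 CPM in HEK293T and 487 to 533 in HuCCT1. Members with hardly a HEK293T count were tested only through HuCCT1, which fixed their direction. MUC16, which carries the CA125 antigen, had 104, 107 and 121 CPM in HuCCT1 and 0 HEK293T counts. LCN2, an iron-trapping secreted protein, had 2 counts against 4847, and AGR2, a chaperone of mucin folding, 0.377 ± 0.171 CPM in HEK293T and 115 ± 5.62 in HuCCT1. MUC1 stood at 0.607 ± 0.294 CPM in HEK293T and 30.95 ± 3.11 in HuCCT1, while MUC5AC, a gel-forming gastric mucin, had 0 and 1 counts.

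S100 and annexin genes, which encode calcium-binding proteins, were higher in HuCCT1 in 17 of 21 tested members and none was higher in HEK293T (median 3.58). S100A6 had 0.135, 0 and 0 CPM in HEK293T and 1928, 1672 and 1634 CPM in HuCCT1 and lies in a run. Outside runs, S100A16 had 2.43, 0.717 and 0.714 CPM in HEK293T and 653, 651 and 626 CPM in HuCCT1, S100A11 was 16.5-fold higher and S100A10 7.83-fold higher. ANXA2, which forms a complex with S100A10 at the membrane, had 316, 302 and 209 CPM in HEK293T and 5278, 4927 and 5342 CPM in HuCCT1 (log2 difference 4.23 ± 0.12). ANXA8 was 524-fold higher, and its reads may be shared with near-identical copies.

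Of the EGF receptor family, its ligands and MET, 12 of 17 tested members were higher in HuCCT1 and 3 in HEK293T (median 3.44). EGFR itself had 11.5, 14.2 and 16.8 CPM in HEK293T and 758, 792 and 799 CPM in HuCCT1, 55.3-fold higher in HuCCT1 (adjusted p = 5.4e-16). Its ligands AREG, TGFA, EREG and HBEGF were 594-fold, 127-fold, 263-fold and 7.79-fold higher. MET, the hepatocyte growth factor receptor, had 81.3 ± 7.32 CPM in HEK293T and 496 ± 20.4 in HuCCT1, and the receptor kinase AXL 1.29 ± 0.943 CPM in HEK293T and 832 ± 27.3 in HuCCT1. ERBB2 had 43.2 ± 2.47 CPM in HEK293T and 74.4 ± 5.21 in HuCCT1 and did not pass beyond 2-fold (adjusted p = 1). The members higher in HEK293T were ERBB4 (5.25 ± 0.894 CPM in HEK293T and 0.109 ± 0.0943 in HuCCT1), EGF (7.90 ± 1.55 CPM in HEK293T and 1.47 ± 0.409 in HuCCT1) and NRG4, with 3.92, 3.30 and 1.86 CPM in HEK293T and no HuCCT1 count.

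Fibroblast growth factor genes split, with 5 of 17 tested members higher in HuCCT1 and 4 in HEK293T, near the background shares (median 0.21). The receptors FGFR3, with 21.4, 19.2 and 27.3 CPM in HEK293T and 0.334, 0.239 and 0.582 CPM in HuCCT1, and FGFR4, 50.5-fold higher in HEK293T, lay on one side. The feedback inhibitors DUSP6 and SPRY4 of the downstream ERK pathway lay on the other. DUSP6 had 2.97, 2.87 and 6.28 CPM in HEK293T and 214, 233 and 222 CPM in HuCCT1, SPRY4 was 52.6-fold higher in HuCCT1, and the ligand FGF2 6.23-fold.

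Integrins and laminins, the receptors and components of the basement membrane, were higher in HuCCT1 in 15 of 27 tested members and in HEK293T in 6 (median 1.36). LAMB3 and LAMA3 encode subunits of laminin-332, an epithelial anchor. LAMB3 had 4.86, 3.87 and 0.999 CPM in HEK293T and 4122, 3989.8 and 3846 CPM in HuCCT1, 1214-fold higher in HuCCT1, and LAMA3 was 17.6-fold higher. ITGB4 and ITGA6, which pair as its hemidesmosome receptor, were 122-fold and 8.31-fold higher, and ITGA2 and ITGB1, a collagen receptor pair, 34.6-fold and 5.00-fold. Higher in HEK293T were ITGA4, with 7.43, 6.74 and 5.42 CPM in HEK293T and no HuCCT1 count, LAMC3 with 117 counts against 2, ITGA7 (15.3-fold) and LAMA1, an embryonic laminin chain (17.3-fold). THBS1, the matrix protein thrombospondin-1, had 0.270, 0.287 and 0.143 CPM in HEK293T and 22763, 22963 and 23162 CPM in HuCCT1, or 5 counts against 799597.

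Caveolae genes, of small membrane pits, were higher in HuCCT1 in 7 of 8 tested members (median 4.60). CAV1 had 15.9, 17.1 and 9.56 CPM in HEK293T and 749, 821 and 786 CPM in HuCCT1 and CAVIN1 39.1, 33.1 and 27.1 CPM in HEK293T and 2089, 2129.8 and 2021 CPM in HuCCT1, with no overlap in either. CAV2 was 14.5-fold and EHD2, an ATPase at the caveolar neck, 18.8-fold higher.

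All 24 tested chemokine and cytokine genes were higher in HuCCT1, 22 of them outside runs. The median was 6.11, or 5.74 with 6 members at 0 in HEK293T set at their bound. The 28 members in both tables summed to 32.0 to 37.2 CPM in HEK293T and 2538 to 2565 in HuCCT1. Members with hardly a HEK293T count were tested only through HuCCT1, so the count cannot be set against the background of 24.5%. CXCL5, a neutrophil chemokine, had 0 CPM in all 3 HEK293T libraries and 828, 840.1 and 874 CPM in HuCCT1, at least 6028-fold higher in HuCCT1. CXCL8, the interleukin-8 gene, had 1.62, 1.00 and 1.43 CPM in HEK293T and 86.1, 80.3 and 89.6 CPM in HuCCT1, 62.3-fold higher. Neither overlapped. IL6 stood at 0.236 ± 0.0872 CPM in HEK293T and 82.3 ± 1.24 in HuCCT1, IL18 at 5.20 ± 0.171 CPM in HEK293T and 238 ± 16.3 in HuCCT1 and IL32 at 0.651 ± 0.316 CPM in HEK293T and 379 ± 20.5 in HuCCT1. CSF2, which encodes GM-CSF, and CXCL10 were at 0 counts in HEK293T against 2443 and 824. IL1RN, the antagonist of the interleukin-1 receptor, had 7275 counts against 0 and lies in a run.

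Sensors of nucleic acids and bacterial products, with their adaptors, were higher in HuCCT1 in 14 of 17 tested members and in HEK293T in 1 (median 3.89). Those with hardly a HEK293T count, such as TLR2 and TLR4, were tested only through HuCCT1, which fixed their direction. CGAS, the DNA sensor, had 0.135, 0.287 and 0.428 CPM in HEK293T and 41.7, 42.7 and 41.8 CPM in HuCCT1, and STING1, its partner, 0 and 30 counts, too few for a test. TLR4 had 1 count against 1610 and TLR2 0 against 401. The adaptors MYD88, TICAM1 and MAVS were 27.2-fold, 58.03-fold and 3.42-fold higher, and the transcription factor IRF1 14.6-fold. TBK1, their common kinase, was the exception, with 23.4, 22.1 and 25.5 CPM in HEK293T and 9.44, 8.05 and 10.5 CPM in HuCCT1, 2.55-fold higher in HEK293T.

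Genes of MHC class I antigen presentation were higher in HuCCT1 in 8 of 11 tested members and in HEK293T in 2 (median 2.85). The members higher in HEK293T were class I heavy chain genes. HLA-C had 138, 127 and 108 CPM in HEK293T and 4.93, 10.3 and 7.76 CPM in HuCCT1, and HLA-B had 30.1, 30.8 and 42.4 CPM in HEK293T and 7.10, 9.80 and 6.30 CPM in HuCCT1. HLA genes are highly polymorphic and alike, so reads may be lost or divided between them. B2M, the common light chain, had 81.1 ± 3.47 CPM in HEK293T and 109 ± 8.13 in HuCCT1 and did not pass. TAP1 and TAPBP, of the peptide loading complex, had 0 and 1, and 0 and 17 counts, near 0 in both tables. CALR, a chaperone of the same complex, was 15.3-fold higher in HuCCT1.

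Aldo-keto reductases and NRF2 targets, of the antioxidant response, were higher in HuCCT1 in 13 of 22 tested members and in HEK293T in 3 (median 1.53). NQO1, a quinone reductase, had 15.3, 14.9 and 16.4 CPM in HEK293T and 168, 161 and 166 CPM in HuCCT1, and the ferritin gene FTH1 was 34.1-fold higher. AKR1C1, AKR1C2 and AKR1C3, which resemble each other closely, had 425, 180 and 327 counts in HuCCT1 and 2 to 15 in HEK293T. HMOX1, or heme oxygenase, was 4.85-fold and AKR1B1 3.62-fold higher in HEK293T.

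**Figure D3:**
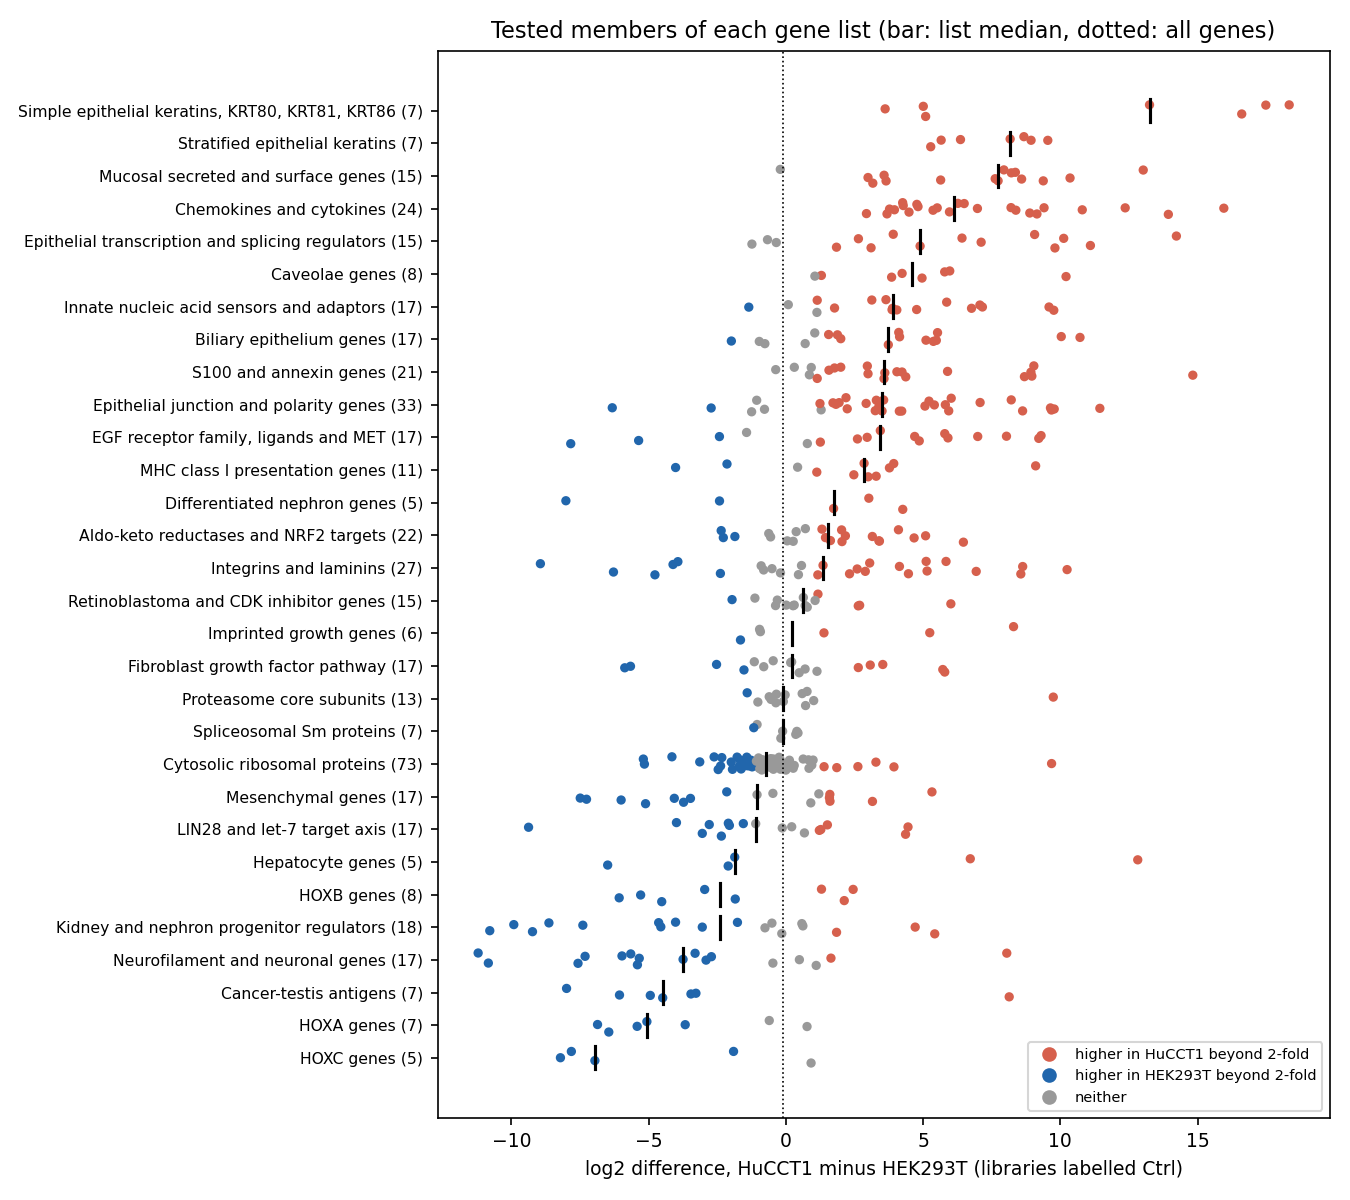
Fitted log2 difference (HuCCT1 minus HEK293T) of each tested member of the gene lists with at least 5 tested members, coloured by call beyond 2-fold, with list medians as bars and the median of all genes, -0.09, as a dotted line; where a gene has 0 counts in one line, its point depends on the prior count. Keratins, cytokines and junction genes lie mostly to the right, and HOX, neuronal and nephron progenitor genes mostly to the left.

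Neuronal genes were higher in HEK293T in 12 of 17 tested members and in HuCCT1 in 2 (median -3.74). Members with hardly a HuCCT1 count were tested only through HEK293T, which fixed their direction. These counts therefore cannot be set against the background shares. INA, a neuronal intermediate filament, had 28.1, 26.4 and 18.6 CPM in HEK293T and no HuCCT1 count, at least 284-fold higher in HEK293T. ELAVL2, a neuronal RNA-binding protein, had 27.03, 30.7 and 36.97 CPM in HEK293T, also with none. NCAM1, the neural cell adhesion molecule, had 16.6, 13.9 and 11.3 CPM in HEK293T and 0.251, 0.319 and 0.388 CPM in HuCCT1 and the synaptic vesicle gene SYP 12.03, 10.8 and 8.85 CPM in HEK293T and 0.668, 0.797 and 0.872 CPM in HuCCT1. Neither overlapped. The axon adhesion molecule L1CAM went against the list, with 1.22, 2.30 and 0.999 CPM in HEK293T and 400.2, 408 and 391 CPM in HuCCT1, 265-fold higher in HuCCT1. With L1CAM included, the summed CPM of the list was higher in HuCCT1 (467 to 498) than in HEK293T (195 to 249).

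Regulators of the kidney and nephron progenitors were higher in HEK293T in 10 of 18 tested members and in HuCCT1 in 3 (median -2.40). Members with hardly a count in 1 line were tested only through the other, which fixed their direction. EYA1, a transcriptional coactivator of the early kidney, had 12.03, 13.1 and 10.6 CPM in HEK293T and 0.167, 0 and 0 CPM in HuCCT1, with no overlap. EYA4, GFRA1, FOXD1 and BMP7, all with roles in embryonic kidney or its signals, had 501, 274, 356 and 907 counts against 0, 0, 1 and 2. PAX8, a factor of the renal lineage, was higher in HuCCT1 instead, with 14.1, 16.1 and 13.6 CPM in HuCCT1 and 0.541, 0.287 and 0.143 CPM in HEK293T, and so was GATA3 (3.60-fold). PAX2 had 8 and 1 counts and was not tested. Of differentiated nephron genes only 5 were tested, 3 higher in HuCCT1 and 2 in HEK293T. LRP2, the megalin receptor of proximal tubules, had 27.2, 26.5 and 23.3 CPM in HEK293T and 0.167, 0 and 0.0969 CPM in HuCCT1, while PODXL, a sialomucin of podocytes and other cells, was 19.2-fold higher in HuCCT1.

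HOX genes were mostly higher in HEK293T. Of 21 tested HOX genes in the 4 clusters, 15 were higher in HEK293T and 3 in HuCCT1. Those with hardly a HuCCT1 count, such as HOXC4 and HOXD8, were tested only through HEK293T, which fixed their direction. HOXA5 had 45.00, 45.3 and 44.7 CPM in HEK293T and 0.0836, 0.159 and 0.969 CPM in HuCCT1, HOXC4 19.7, 20.7 and 22.4 CPM in HEK293T and 0.167, 0 and 0 CPM in HuCCT1 and HOXB9 60.9, 55.1 and 72.6 CPM in HEK293T and 2.26, 3.03 and 2.91 CPM in HuCCT1. HOXA5, HOXC4 and HOXB9 had no overlap between the lines. The 3 higher in HuCCT1 belong to the HOXB cluster, in which HOXB4, between them, was higher in HEK293T (26.6 ± 1.07 CPM against 3.43 ± 0.817). HOXB3 had 149.6, 159.9 and 150.2 CPM in HuCCT1 and 29.2, 33.3 and 42.8 CPM in HEK293T, HOXB5 12.03, 12.9 and 12.1 CPM in HuCCT1 and 1.89, 2.15 and 2.71 CPM in HEK293T, and HOXB6 was 2.46-fold higher in HuCCT1. HOXA3 and HOXC8 did not pass beyond 2-fold (0.77 and 0.92). A further 14 HOX genes with at least 30 HEK293T counts are not listed in the HuCCT1 table, among them HOXD13 (126 ± 6.92 CPM), HOXA9 (106 ± 10.99), HOXA11 (38.1 ± 2.23) and HOXD11 (32.0 ± 1.23). HOTAIR, a lncRNA of the HOXC cluster, had 85 counts in HEK293T and none in HuCCT1.

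**Figure D4:**
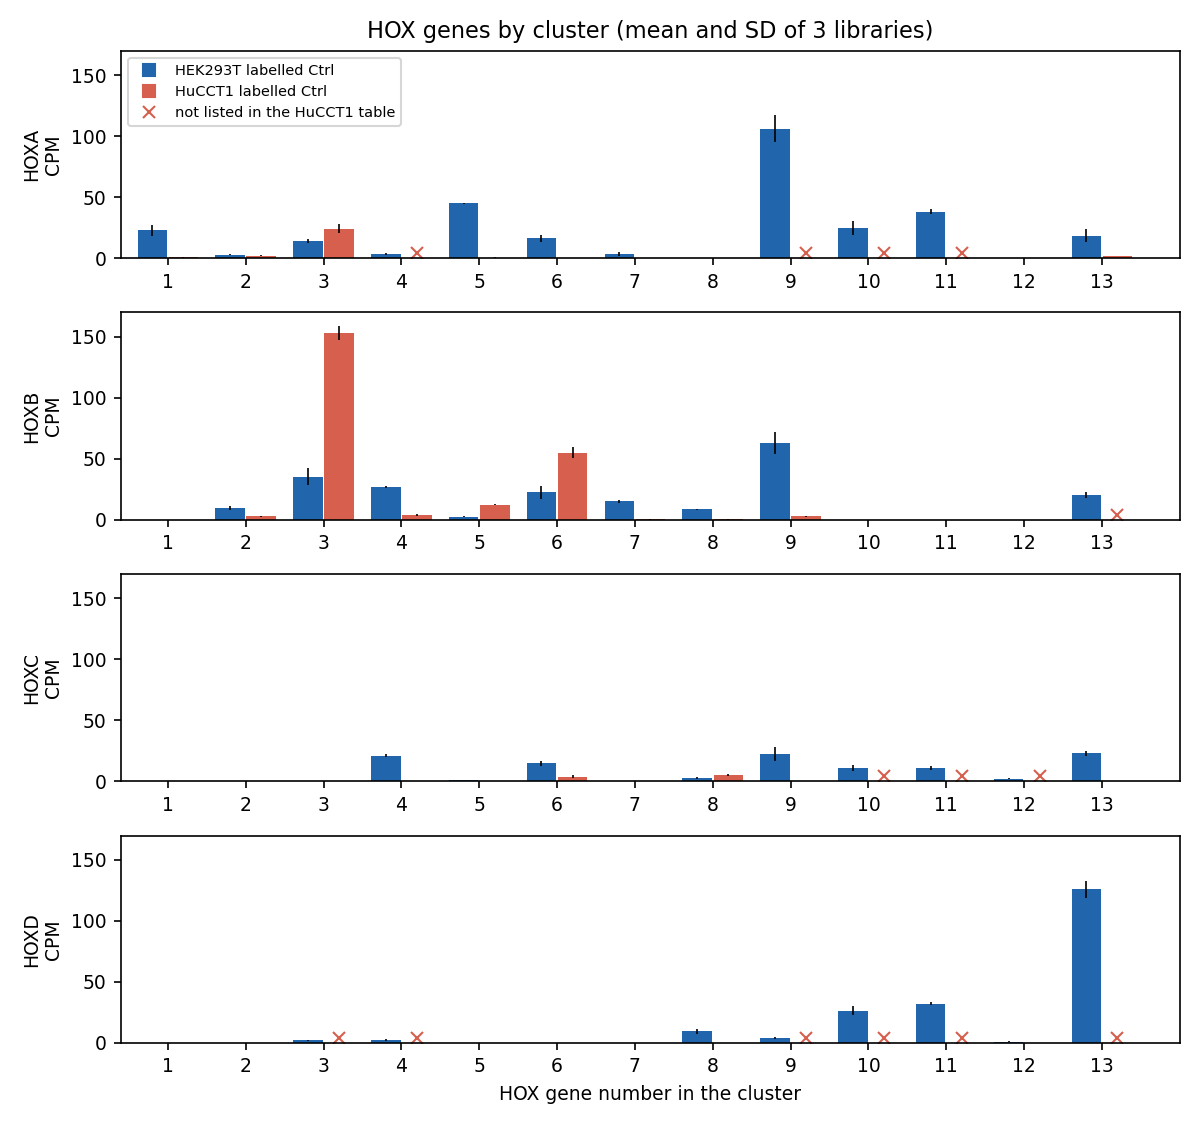
Mean CPM and SD of 3 libraries for HOX genes by cluster (rows) and gene number, HEK293T blue and HuCCT1 red; crosses mark genes not listed in the HuCCT1 table, and positions with neither a bar nor a cross have no gene or too few counts. Blue bars spread over the 4 clusters, while red bars stand above the blue at HOXA3, HOXB3, HOXB5, HOXB6 and HOXC8.

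Around LIN28B, genes of the LIN28 and let-7 axis were higher in HEK293T in 8 of 17 tested members and in HuCCT1 in 5 (median -1.10). IGF2BP1, an oncofetal RNA-binding protein and let-7 target (ENSG00000159217.10, chromosome 17, 48997385 to 49056145, plus strand), had 467, 467 and 459.6 CPM in HEK293T and 0.501, 1.12 and 0.388 CPM in HuCCT1, 662-fold higher in HEK293T (log2 difference -9.37 ± 0.14). Its relatives divided: IGF2BP3 was 15.8-fold higher in HEK293T and IGF2BP2 2.86-fold higher in HuCCT1. The let-7 targets HMGA1 and HMGA2 were higher in HuCCT1, HMGA1 with 136, 129 and 115 CPM in HEK293T and 2690.2, 2607 and 2524 CPM in HuCCT1 and HMGA2 with 54.97 ± 1.72 CPM in HEK293T and 133 ± 4.02 in HuCCT1. HIC2 and NR6A1 were 4.27-fold and 6.91-fold higher in HEK293T, and so was TUT4 (5.09-fold), which uridylates let-7 precursors. LIN28A had 7 and 9 counts and was not tested.

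Mesenchymal genes were divided, with 8 of 17 tested members higher in HEK293T and 5 in HuCCT1 (median -1.05). VIM, or vimentin, had 1072, 1001 and 868 CPM in HEK293T and 219, 213 and 229.6 CPM in HuCCT1. ZEB2 and ZEB1, repressors of E-cadherin, had 25.00, 25.5 and 34.97 CPM in HEK293T and 0.0836, 0.0797 and 0.388 CPM in HuCCT1, and 18.6 ± 2.40 CPM in HEK293T and 1.67 ± 0.460 in HuCCT1. All HEK293T libraries lay above all HuCCT1 libraries for VIM and ZEB2. SPARC, a matrix protein, and TCF4 were 63.98-fold and 34.5-fold higher in HEK293T. FN1, or fibronectin, had 78.8, 67.7 and 50.7 CPM in HEK293T and 582, 595 and 582 CPM in HuCCT1, higher in HuCCT1 instead, as was SNAI2 (3.05-fold), another repressor of E-cadherin. CDH2, or N-cadherin, had 119 ± 0.313 CPM in HEK293T and 223 ± 2.40 in HuCCT1 and did not pass beyond 2-fold (log2 difference 0.91).

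Of 7 tested cancer-testis antigens, germline genes that tumours can express, 6 were higher in HEK293T and 1, DDX43, in HuCCT1 (median -4.48). Here too, members with hardly a count in 1 line were tested only through the other, which fixed their direction. MAGEC2 had 4.86, 3.44 and 5.99 CPM in HEK293T and 0.418, 0.159 and 0 CPM in HuCCT1. MAGEA3, MAGEA2 and MAGEA6 had 72, 60 and 65 HEK293T counts against 0 to 3, and their near-identical sequences make the division between them uncertain. Imprinted growth genes had 3 of 6 tested members higher in HuCCT1 and 1 in HEK293T (median 0.23). PEG10, a gene derived from a retrotransposon, had 0.541, 1.15 and 0.428 CPM in HEK293T and 219, 230.5 and 225 CPM in HuCCT1, 314-fold higher in HuCCT1, MEST was 37.9-fold higher there, and IGF2R was 3.14-fold higher in HEK293T.

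Retinoblastoma and CDK inhibitor genes gave 4 of 15 higher in HuCCT1 and 1 in HEK293T, near the background for HuCCT1 (median 0.64). CCND1, or cyclin D1, had 22.7, 19.5 and 19.6 CPM in HEK293T and 1314, 1366 and 1311 CPM in HuCCT1, 64.5-fold higher in HuCCT1, with CCND3 6.23-fold and their kinase CDK6 6.45-fold higher. CCND2 is listed in the HEK293T table alone, at 62.5 ± 1.04 CPM. RBL2, a retinoblastoma relative, was 3.89-fold higher in HEK293T, and CDKN2A had 119 ± 3.32 CPM in HEK293T and 91.7 ± 1.96 in HuCCT1 and did not pass.

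Markers of other cell types were scarce. Of 8 endothelial genes that both tables list, only ESAM had enough counts for a test, at 3.41 ± 0.469 CPM in HEK293T and 9.68 ± 0.0311 in HuCCT1, and the 8 together summed to 6.17 to 7.85 CPM in HEK293T and 11.2 to 12.3 in HuCCT1. Of 9 blood cell genes 2 could be tested, and the 9 summed to 3.78 to 5.02 and 8.92 to 11.2 CPM.

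Proteasome, Sm and ribosomal protein genes, which every cell needs, were called less often than tested genes as a whole (50.6%). Ribosomal protein genes nevertheless leaned toward HEK293T. Of 13 tested proteasome core subunits 1 was called in each direction, PSMB3, which lies in a run, and PSMA4, 2.65-fold higher in HEK293T (median -0.09). Of 7 tested spliceosomal Sm proteins 1, SNRPG, was higher in HEK293T, 2.25-fold (median -0.12). SNRPE had 198 ± 8.83 CPM in HEK293T and 96.00 ± 9.19 in HuCCT1 and did not pass (adjusted p = 0.19). Cytosolic ribosomal proteins were higher in HEK293T in 21 of 73 tested members, near the background of 26.1%. In HuCCT1 6 were higher, below the background of 24.5%. The list median was -0.73, against -0.09 for all genes. Single members differed far beyond the list median. RPS3A had 1.35, 1.29 and 1.57 CPM in HEK293T and 1091, 1170.3 and 1227 CPM in HuCCT1, RPL21 1128, 964 and 974 CPM in HEK293T and 24.2, 22.1 and 38.3 CPM in HuCCT1 and RPL39 6546, 5872 and 5653 CPM in HEK293T and 335, 23.5 and 150.3 CPM in HuCCT1. Ribosomal protein genes have many processed copies in the genome, so these values depend on how the authors' counting placed such reads, which was not tested.

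Genes found in one line and nearly absent from the other were counted separately, as those with a mean of at least 5 CPM in one line and at most 3 counts over the 3 libraries of the other. HuCCT1 had 287 such genes (239 protein_coding and 48 lncRNA), of which 73 lie in runs and 214 outside. HEK293T had 241 (225 and 16), of which 10 lie in runs. A further 148 genes with at least 5 CPM in HEK293T are not listed in the HuCCT1 table, which lists no gene without a count, and they are not among the 241, so the 2 numbers cannot be set against each other. In the libraries labelled SNRPD2KO, 260 of the 287 and 194 of the 241 again had at most 3 counts in the other line. Among protein_coding genes of at least 10 CPM, those with the largest fitted difference toward HuCCT1, an order that depends on the prior count for genes at 0, were KRT81, KRT19, KRT7, THBS1, CXCL5, APOL1, LAD1, S100A6, MEF2D, ZNF185, EHF and NSDHL. APOL1, a trypanosome lytic factor, had 415, 410.0 and 409 CPM in HuCCT1, and LAD1, an anchoring filament protein, 402, 416 and 397 CPM in HuCCT1, both with 0 HEK293T counts. LAD1, ZNF185, NSDHL and S100A6 lie in runs, as do KRT81, KRT19 and KRT7. Toward HEK293T they included IRS4, LDHB, PCDH10, RPL39L, MAN1A1, CADM1, POU4F1, ELAVL2, ID4, GYG2 and KRBA1. IRS4, an insulin receptor substrate known for its abundance in HEK293 cells, had 396, 387 and 563 CPM in HEK293T and no HuCCT1 count, at least 5204-fold higher in HEK293T. LDHB, a lactate dehydrogenase subunit, had 311, 283 and 272 CPM in HEK293T, again against 0, at least 3361-fold higher. For IRS4 and LDHB too, whether the gene was silent or not counted in HuCCT1 was not tested. PCDH10, a protocadherin, and CADM1, an adhesion molecule, had 2365 and 2375 counts against 0 and 1.

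The promoters of 4 genes found in 1 line are shown as examples, picked by hand and not by the size of their difference. They are CXCL5 and EHF with counts in HuCCT1 alone, IRS4 with counts in HEK293T alone, and LIN28B, listed in the HEK293T table alone. No promoter entry was available for KRT19 and KRT7. Each is the 250 bases before the RefSeq start (GRCh38.p14), 5′ to 3′ on the gene's strand, with CG dinucleotides in capitals. The windows are chr4:73998678-73998927 (minus strand) for CXCL5, chr11:34624007-34624256 (plus) for EHF, chrX:108736564-108736813 (minus) for IRS4 and chr6:104940715-104940964 (plus) for LIN28B.
CXCL5: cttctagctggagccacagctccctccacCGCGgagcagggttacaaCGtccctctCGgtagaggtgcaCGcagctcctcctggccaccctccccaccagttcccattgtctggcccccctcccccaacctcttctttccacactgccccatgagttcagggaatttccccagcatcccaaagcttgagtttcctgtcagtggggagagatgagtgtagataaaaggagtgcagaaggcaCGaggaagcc
EHF: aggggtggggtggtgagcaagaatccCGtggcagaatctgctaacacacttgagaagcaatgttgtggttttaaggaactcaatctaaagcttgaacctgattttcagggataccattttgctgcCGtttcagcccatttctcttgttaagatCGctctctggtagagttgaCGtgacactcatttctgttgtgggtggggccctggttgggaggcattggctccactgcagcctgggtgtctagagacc
IRS4: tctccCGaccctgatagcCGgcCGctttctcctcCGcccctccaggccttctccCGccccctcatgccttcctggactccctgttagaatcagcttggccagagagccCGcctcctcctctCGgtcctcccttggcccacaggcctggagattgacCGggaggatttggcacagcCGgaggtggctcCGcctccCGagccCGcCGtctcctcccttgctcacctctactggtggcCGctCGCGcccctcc
LIN28B: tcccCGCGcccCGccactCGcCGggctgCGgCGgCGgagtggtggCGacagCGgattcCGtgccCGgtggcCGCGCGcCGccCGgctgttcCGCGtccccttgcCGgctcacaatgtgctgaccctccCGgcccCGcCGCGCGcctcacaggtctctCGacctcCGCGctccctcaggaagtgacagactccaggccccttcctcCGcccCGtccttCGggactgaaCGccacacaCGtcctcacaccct
With the 50 bases after the start added, the CXCL5 and EHF windows held 9 and 8 CG dinucleotides, and those of IRS4 and LIN28B 23 and 37. The median over 27305 RefSeq promoters of that length, 300 bases, was 14, with quartiles of 3 and 28. So 42.1% and 39.9% of all promoters held fewer than CXCL5 and EHF, and 64.4% and 88.9% fewer than IRS4 and LIN28B. This describes these windows only, and methylation was not measured. EHF has several starts, and the first listed was used.

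Noncoding genes leaned toward HEK293T. Of 2389 tested lncRNA genes 853 (35.7%) were higher in HEK293T and 352 (14.7%) in HuCCT1, with a median of -0.89. Among 12978 protein_coding genes the shares were 24.3% and 26.3% and the median 0.04. lncRNA genes took 2.19% to 2.26% of the compared counts in HEK293T and 1.31% to 1.33% in HuCCT1. UCA1, a lncRNA named for urothelial cancer, had 813, 824 and 819.8 CPM in HuCCT1 and no HEK293T count, at least 5836-fold higher in HuCCT1, and lies in a run. LINC02474 and KRT7-AS, the antisense partner of KRT7, had 2355 and 1071 counts against 0, and KRT7-AS lies in a run. The kit keeps the strand, but whether the counting used it is not given in the sources used here, so KRT7-AS reads cannot be told apart from KRT7 reads. EMX2OS, LINC01036, ZNF790-AS1 and LINC00960 were on the HEK293T side, with 117, 107, 106 and 305 counts against 0 or 1.

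The difference was uneven along the genome. Chromosome 6 had the lowest median log2 difference, -0.90 over 724 tested genes, with 40.5% of them higher in HEK293T, and chromosome 18 followed at -0.73 over 218. At the other end stood chromosome 11, at 0.71 over 865 genes with 39.4% higher in HuCCT1, and chromosome 20, at 0.55 over 420. In windows of 20 Mb with at least 20 tested genes, chromosome 18 from 20000001 to 40000000 (hg38) had a median of -2.18 over 68 genes, and 69.1% of them were higher in HEK293T. Chromosome 13 from 100000001 to 120000000 had 1.63 over 49 genes. DNA copy number was not measured. Differences also moved with GC content, as described below, and the chromosome and window medians were not computed with that trend removed.

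**Figure D5:**
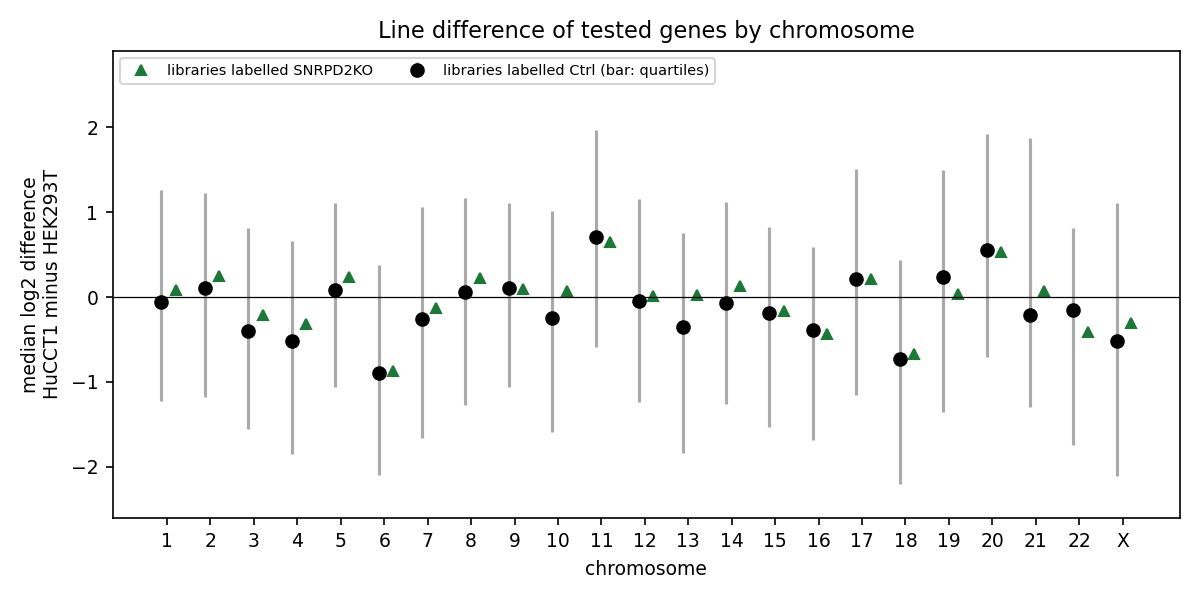
Median log2 difference (HuCCT1 minus HEK293T) of tested genes on each autosome and X in the libraries labelled Ctrl (black circles, bars from the lower to the upper quartile) and in those labelled SNRPD2KO (green triangles). Medians run from -0.90 on chromosome 6 to 0.71 on chromosome 11, and those of the libraries labelled SNRPD2KO from -0.87 to 0.65 on the same chromosomes.

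Because SNRPD2 RNA was higher in the libraries labelled SNRPD2KO, the lines were compared again in the 3 libraries of each that carry this label. There 51.4% of 15205 tested genes differed beyond 2-fold. Of the 3771 genes called higher in HuCCT1 among the libraries labelled Ctrl, 2947 were called so again (78.1% of these and 76.6% of the 3849 calls there), 7 were called the other way and 85 were not tested. Of the 4008 called higher in HEK293T, 2778 were called again (69.3% and 70.2% of 3959), 14 the other way, and 461 were not tested. KRT18, CDH1, SOX9 and EGFR had log2 differences of 4.91, 4.86, 4.74 and 6.39 there, and IGF2BP1 and VIM -10.16 and -1.66. Chromosomes 6 and 11 again gave the lowest and the highest median, -0.87 and 0.65.

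Differences also moved with base composition. Across the 96.8% of tested genes with a transcript GC content, Spearman's rho between GC and the log2 difference was 0.25, a description over genes that share libraries. The median rose from -0.80 in the fifth of genes with the lowest GC content to 0.63 in the highest. With this trend removed, 3601 genes were higher in HuCCT1 and 3719 in HEK293T beyond 2-fold. Of 272 genes followed singly, 263 then kept their direction and their side of the threshold, 8 lost the call, 1 gained it and none changed sign.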

How the data were processed

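The values are counts per gene that the authors deposited as 1 table per line, whole numbers without normalization, from a stranded total RNA kit with ribosomal RNA depletion, per the labels' protocols. cutadapt 4.2, HISAT2 2.2.1, RSEM and build hg38 are named in the submitters' processing notes; their roles and the annotation release are not given in the sources used here. The HuCCT1 table lists 35595 genes, all in the HEK293T table (62703). No sample column was left unused (0), and HEK293T holds 0 counts on 37 mitochondrially encoded genes.

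Groups came from the labels. Counts of the shared genes were fitted in R 4.3.3 with edgeR 4.0.16 (TMM, default filter with minimum count 10 and minimum total 15, quasi-likelihood test, glmTreat at 2-fold, Benjamini-Hochberg, two-sided). The biological coefficient of variation was 8.95%. Replicate pairs differed beyond counting noise (chi-square per degree of freedom 3.04 to 5.29). Ratio intervals are exact at 95% confidence. TMM factors were 1.25 to 1.27 in HEK293T and 0.78 to 0.80 in HuCCT1. The pipeline was tested on simulated data. Transcript GC came from GENCODE 29 and promoters from RefSeq.

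Gene lists and members were chosen with earlier results of these data known. The text names the markers, SNRPD2 and PUS7, the 12 protein_coding genes (at least 10 CPM) and 6 lncRNA genes (at least 3 CPM) with the largest difference per direction, up to 6 called members per list by size, and the members that define a list. Some that met the rule are not reported here. PQBP1, CCT8, COX5B, NDUFB10, MED10 and PLP2 were named after their values were seen, to show genes at or near 0 in HEK293T and a neighbour.

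Alternatives were RLE and upper quartile factors, library totals, other filters, limma voom (3.58.1), DESeq2 1.42.0, a replicate block, other gene sets, thinning and each library left out. Chosen after seeing the data were unlisted genes set at 0, GC trend removal and leaving out runs.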

Additional observations from a re-analysis of the deposited data

Results flagged for a closer look

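Genes listed in the HEK293T table alone held signal outside the comparison. Of them, 157 of the compared types had at least 100 counts over the 3 HEK293T libraries labelled Ctrl. UCHL1, a neuronal ubiquitin hydrolase, had 234 ± 23.4 CPM, HOXD13 126 ± 6.92, HOXA9 106 ± 10.99, LIN28B 85.0 ± 4.30, SPART 73.0 ± 3.15 and CCND2 62.5 ± 1.04 (SD, n = 3). The HuCCT1 table lists no gene without a count, while the HEK293T table lists 22008. Mitochondrially encoded genes had 241808 to 280938 counts in the HuCCT1 libraries labelled Ctrl and 0 in HEK293T.

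Among 260 called genes followed singly, TBK1 changed direction between the label groups. Over all genes, 7 calls higher in HuCCT1 and 14 higher in HEK293T were called the other way in the libraries labelled SNRPD2KO. It was lower in HuCCT1 in the libraries labelled Ctrl, with a log2 difference of -1.35 ± 0.14, and in those labelled SNRPD2KO it had 19.4 ± 2.42 CPM in HuCCT1 and 8.50 ± 1.02 in HEK293T, a log2 difference of 1.20 that did not pass beyond 2-fold (adjusted p = 0.0684 by edgeR's glmTreat). The change between label groups was not tested.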

How the results depend on the processing

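Among the alternatives run, library totals and upper quartile factors moved the balance of directions most, and the low-count filter moved the number of calls at an adjusted p under 0.05 most. With library totals alone 2481 genes were higher in HuCCT1 and 6075 in HEK293T beyond 2-fold. With upper quartile factors they were 2728 and 5548, and 33.0% of calls were then higher in HuCCT1. These scalings moved the median of all genes by -0.68 and -0.52. Without a low-count filter 15416 genes passed an adjusted p of 0.05, with 4659 and 4646 beyond 2-fold higher in HuCCT1 and HEK293T. At a minimum count of 30 the numbers were 11021, 3116 and 3191, with DESeq2 12461, 3308 and 3094, and thinned to the smallest total 11611, 3200 and 3564. With each library left out in turn they ranged over 12233 to 13494 at an adjusted p under 0.05, 3559 to 4114 higher in HuCCT1 and 3757 to 4058 higher in HEK293T. Same-numbered libraries did not deviate together (correlations 0.0025 to 0.037), so the numbers do not pair them, and a replicate block gave 12812, 3739 and 3945. With unlisted HuCCT1 genes counted as 0 the figures were 13426, 3777 and 4423, and without the genes in runs 12908, 3674 and 3993.

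Of 260 called genes followed across settings, 240 kept the call in every setting that tested them, and 1, TBK1, reversed (1.20 in the libraries labelled SNRPD2KO). Differences not called beyond 2-fold, and some list medians, also changed sign, and the cause was not tested. Under upper quartile factors PUS7 was -0.33, B2M -0.087 and the medians of imprinted and fibroblast growth factor genes -0.29 and -0.30. Under library totals they were -0.49, -0.25, -0.44 and -0.46, and that of retinoblastoma and CDK inhibitor genes -0.038. In the libraries labelled SNRPD2KO, SNRPD2 was 0.033, PUS7 -0.035 and the imprinted median -0.021. The hepatocyte median, -1.86 over 5 members, was 6.63 at a minimum count of 30, where 3 members could be tested, and over 4 members 1.44 in the libraries labelled SNRPD2KO and 1.82 over 12 libraries. The proteasome median was 0.011 without a filter, -0.15 to 0.030 with each library left out (the highest without HEK293T replicate 1) and 0.29 with the GC trend removed.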
